A study of Sus scrofa domesticus with 4 samples.

Results

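Claudins, occludin and E-cadherin hold epithelial cells together. Claudins span the membrane at the tight junction and set which ions and molecules pass between cells, occludin (OCLN) is another membrane protein of that junction, and E-cadherin (CDH1) is the calcium-dependent adhesion protein of the adherens junction below it. In the uterus these proteins join the luminal and glandular epithelium, the layer that faces the attaching conceptus in early pregnancy.

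The genes described are CLDN3, CLDN4, OCLN and CDH1, taken from a list of 5 that also named CLDN1. Probes were assigned to a gene by the RefSeq accession in the scanner files, and no probe was matched to CLDN1, which is not analysed here. The other 4 genes, of 3029 genes named on the array, had 7 probes: 1 each for CLDN3 and CLDN4, 3 for OCLN and 2 for CDH1. All 7 passed the filter on dim probes, which left 26927 of 43603 probes. The list was drawn up with the OXA over control ratios known, so these ratios are given as a description, with no test.

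The tissue was endometrium of 4 mature gilts (Large White x Polish Landrace, aged 7 to 8 months) on days 15 to 16 of gestation. Slices stood in medium for 2 h and were then cultured for 24 h either with orexin A (OXA), a neuropeptide hormone, or without any treatment. The dose of OXA is 10 nM in the sample labels but 10 µM in the series description. Each of 4 two-colour Agilent arrays, numbered as in their titles, held 1 RNA from OXA-treated tissue and 1 from untreated control tissue, and the OXA RNA carried the dye Cy5 on arrays 1 and 3 but Cy3 on arrays 2 and 4. The labels give duplicate cultures in 4 experiments. Slices are mixed tissue, in which fewer cells of a type and less RNA per cell cannot be told apart. The labels do not say whether an array paired tissue of a single gilt.

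Array 1 stood apart from the others. It was on another slide, was scanned 71 days after arrays 2 to 4, and had 31.8% of probes well above background in Cy3, against 52.1% to 56.7% on the other arrays. In Cy5 that share was 62.4% to 74.5%. Saturated spots numbered 0, and precision is limited by having 4 arrays. The log2 ratios of OXA over control correlated weakly between arrays over the 26927 probes, with Pearson's r from -0.29 (arrays 3 and 4) to 0.42 (arrays 1 and 2), a description over probes that share arrays and are not independent. Epithelium was present in the tissue as labelled: all 7 epithelium markers with a probe were well above background in all 8 readings (4 arrays, 2 dyes), namely EPCAM, KRT8, SPP1, SPINT1, CLDN3, CLDN4 and CDH1.

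CLDN3 was lower with OXA on 3 arrays and higher on the other. Its log2 ratio of OXA over control was -1.34 on array 1, -0.71 on array 2, -0.49 on array 3 and 0.75 on array 4, with a mean of -0.45 ± 0.88 (SD, n = 4). The SD was larger than the mean, and the arrays lay on both sides of 0. On array 1 the OXA RNA held 0.394 times the control amount, and on array 4 it held 1.68 times the control amount. CLDN3 lies directly beside CLDN4 in the Sscrofa11.1 gene table, with ABHD11 and METTL27 as the flanking genes.

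CLDN4 had the lowest single ratio of the 4 genes. It was -1.86 on array 1, -0.73 on array 2, 0.21 on array 3 and 0.22 on array 4, with a mean of -0.54 ± 0.99 (SD, n = 4). On array 1 the OXA RNA held 0.275 times the control amount. Arrays 3 and 4 were close to each other for CLDN4 but not for its neighbour CLDN3, which was below 0 on array 3.

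OCLN was low on array 1 and near 0 on the rest. Its brightest probe read -1.38 on array 1, -0.07 on array 2, -0.05 on array 3 and 0.06 on array 4, a mean of -0.36 ± 0.68 (SD, n = 4). The other OCLN probes read -1.52 and -1.41 on array 1, and from -0.30 to 0.05 on arrays 2 to 4. All 3 probes thus placed array 1 more than 1 log2 unit below every other array, and their means were -0.36, -0.46 and -0.35.

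CDH1 followed the same order of arrays, with an SD near that of OCLN. Its bright probe read -1.04 on array 1, -0.36 on array 2, 0.21 on array 3 and 0.42 on array 4, a mean of -0.19 ± 0.65 (SD, n = 4). The second CDH1 probe was dim, with 175.5 to 380 units of median intensity, and was not well above background in the control RNA of array 1. It read -0.44, -0.07, -0.01 and 0.01 on arrays 1 to 4, the same order in a narrower range.

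**Figure D1:**
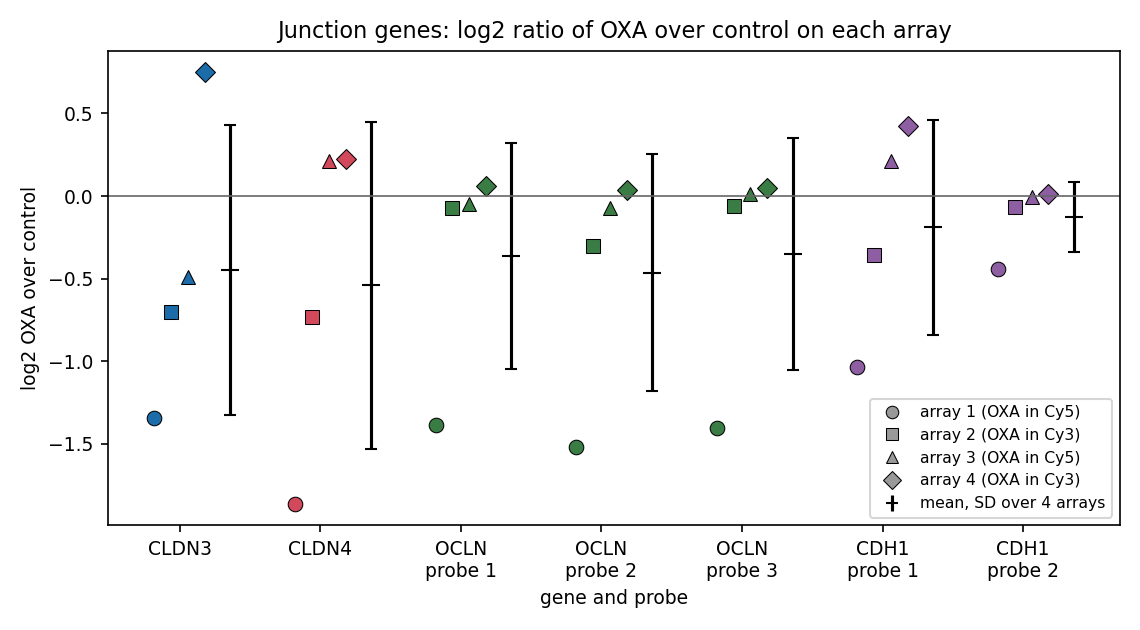
Log2 ratio of OXA over control (y axis) for the 7 probes of CLDN3, CLDN4, OCLN and CDH1 (x axis), with 1 symbol per array and the mean and SD over 4 arrays at the right of each probe. Array 1 is the lowest for every probe, from -1.86 to -0.44, and array 4 is the highest, from 0.01 to 0.75.

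None of these means stood clear of the spread between arrays, and array 1 carried much of each. Without array 1 the fitted ratios were -0.23 for CLDN3, -0.02 for CLDN4, -0.03 for OCLN and 0.12 for CDH1. Without array 2 CLDN3 was -0.08, CLDN4 -0.30 and CDH1 0.0047. Without array 3 the ratios were -0.66, -1.06, -0.70 and -0.50 for CLDN3, CLDN4, OCLN and CDH1, where array 1, then the only array with OXA in Cy5, weighs as much as arrays 2 and 4 together. Without array 4 CLDN3 was -0.81 and CDH1 -0.39. In every such fit the only array left in its dye orientation weighs as much as the other arrays together. That is array 3 without array 1, array 4 without array 2 and array 2 without array 4. The values thus mix the loss of an array with a change in weights. In limma's fit over all 26927 probes, 0% passed an adjusted p of 0.05, and 1.3% passed a looser rule (unadjusted p under 0.05 and a fold of at least 1.2), with 0.672% passing it as lower. Of the 7 probes of the 4 genes, 0 passed either rule in either direction, and nothing is read from that, since the genes were chosen on this contrast.

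The 4 genes were next set side by side on arrays 1 and 4, the ends of the range. Array 1 minus array 4 was -2.09 for CLDN3, -2.09 for CLDN4, -1.44 for OCLN and -1.46 for CDH1, on the log2 scale. The other OCLN probes gave -1.56 and -1.45, and the dim CDH1 probe gave -0.45. A difference of at least 1 log2 unit in this direction was found for 6 of the 7 probes and for 1.88% of the 26927 probes, whose median was 0.08, with the middle 90% from -0.69 to 0.95. The genes were chosen on this pattern, so the share is a description. There is 1 array on each side and no replicate check. Slide, scan time, OXA dye and culture differ between these arrays and cannot be told apart.

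Array 1 was below array 4 by any amount for 7 of 7 probes, against 41.3% of all 26927 kept probes. The range over arrays reached at least 1 log2 unit for 6 of 7 probes, against 10.6% of all. Values below control on array 1 were found for 7 of 7 probes, against 41.7% of all, and values at least 1 log2 unit below control there for 6 of 7, against 1.38%. The sequence of arrays 1 to 3 below control and array 4 above it was found for 4 of 7 probes, against 8.25%. These shares too are descriptions.

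The levels in each RNA show where the low ratios of array 1 sat. A level here is a spot's normalized log2 brightness plus or minus the share of the ratio that belongs to each RNA, with brightness matched between arrays. It is compared only within a probe and, apart from a count given with the figure, between RNAs of the same treatment. Arrays 1 and 3 carried each RNA in the same dye, as did arrays 2 and 4, while an order over all 4 arrays crosses the dyes and is a description. For OCLN, levels on arrays 1 to 4 were 12.38, 12.27, 12.05 and 12.37 in the OXA RNAs, against 13.76, 12.34, 12.11 and 12.31 in the control RNAs. The OXA RNAs of OCLN spanned 0.33 units. Among its control RNAs array 1 lay more than 1 unit above the other arrays.

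For CLDN3, levels were 15.06, 14.26, 14.78 and 15.64 in the OXA RNAs, against 16.40, 14.97, 15.27 and 14.89 in the control RNAs. The control RNA of array 1 was again the highest of its group, while the OXA RNA of array 1 was not the lowest of its group. On array 4 the CLDN3 excess came with the highest OXA level and the lowest control level.

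For CLDN4, levels were 11.42, 11.47, 12.05 and 12.26 in the OXA RNAs, against 13.28, 12.20, 11.84 and 12.04 in the control RNAs. By brightest probes, this was the gene in which array 1 had both the highest control level and the lowest OXA level. For CDH1, levels were 12.55, 13.01, 12.95 and 12.49 in the OXA RNAs, against 13.59, 13.37, 12.74 and 12.07 in the control RNAs. The control RNAs of CDH1 spread over 1.52 units and its OXA RNAs over 0.52. Its dim probe also had the highest control and lowest OXA level on array 1, with that control reading not well above background.

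**Figure D2:**
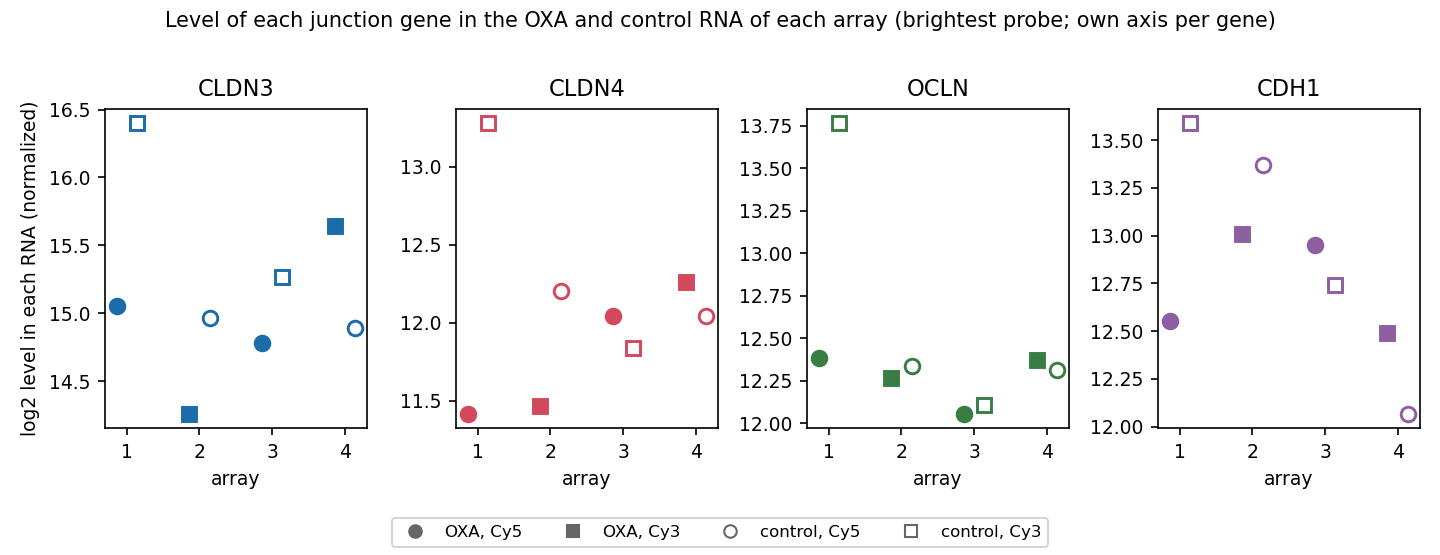
Normalized log2 level (y axis, a separate scale per gene) of CLDN3, CLDN4, OCLN and CDH1 in the OXA RNA (filled) and the control RNA (open) of arrays 1 to 4 (x axis), with Cy5 as circles and Cy3 as squares, from the brightest probe of each gene. The control RNA of array 1 is the highest of the 4 control values in each panel, at 16.40, 13.28, 13.76 and 13.59. It was the highest of all 8 levels for 7 of the 7 probes and for 23.5% of all kept probes. That count crosses dyes and treatments and is a description. It includes the dim CDH1 probe, which was not well above background in the control RNA of array 1.

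Arrays 1 and 3 can be set against each other within a dye. Between them the OXA RNA of array 1 differed by 0.28 for CLDN3, -0.63 for CLDN4, 0.33 for OCLN and -0.40 for CDH1. The control RNA of array 1 was higher by 1.13, 1.44, 1.66 and 0.85 for the same genes. A control RNA at least 1 unit higher on array 1 than on array 3 was found for 5 of the 7 probes and 1.3% of all 26927. An OXA RNA at least 1 unit lower on array 1 than on array 3 was found for 0 of the 7 probes and 0.954% of all. These levels come from the arrays the list was chosen on, and the shares are descriptions.

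The unnormalized intensities are given for the same pair of arrays. OCLN gave 7036.5 units in the OXA RNA of array 1 and 7062 in that of array 3, both in Cy5, against 9076 units in the control RNA of array 1 and 2529 in that of array 3, both in Cy3. For CLDN4 the OXA RNAs gave 3343.5 and 6988 units on arrays 1 and 3, against 6229.5 and 1841 in the control RNAs. In the OXA RNAs (Cy5), array 1 over array 3 was 0.761 for CLDN3, 0.478 for CLDN4, 0.996 for OCLN and 0.549 for CDH1, with a median of 0.754 over all kept probes. In the control RNAs (Cy3) the same ratio was 3.36, 3.38, 3.59 and 2.07, with a median of 1.27. For these brightest probes array 1 was thus above array 3 in the control RNAs but not in the OXA RNAs, and CLDN3 was dimmer there by raw intensity while its normalized level was higher.

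Arrays 2 and 4, on 1 slide and with OXA in Cy3 on both, gave the other comparison within a dye. The OXA RNA of array 2 was below that of array 4 by a difference of -1.38 for CLDN3, -0.80 for CLDN4 and -0.11 for OCLN, and CDH1 differed by 0.52. The control RNAs of arrays 2 and 4 differed by 0.07, 0.16, 0.02 and 1.30 for CLDN3, CLDN4, OCLN and CDH1. On this pair CLDN3 and CLDN4 differed more in the OXA RNA than in the control RNA, and CDH1 more in the control RNA. OCLN differed little in either.

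The ratios depend on how the dyes were balanced. Cy5 was brighter than Cy3 among bright spots, and loess removes that trend while centring each array on its median leaves it in. With median centring, CLDN3 read -0.05 on array 1 and -0.50 on array 4, so the order of these arrays turned, and array 1 minus array 4 was 0.45 for CLDN3, -0.24 for CLDN4, 0.48 for OCLN and 0.45 for CDH1. The probes nearest to CLDN3 in brightness had medians of 1.32 on array 1 and -1.06 on array 4 under that centring. Relative to probes of like brightness, a setting chosen after the data were seen, array 1 minus array 4 was -1.92, -2.27, -1.60 and -1.62 for the 4 genes. That setting takes out the brightness trend much as loess does, so its likeness to the loess values is no separate check. Agilent's own log ratio, which balances the dyes separately, gave -2.09, -2.53, -1.91 and -1.76.

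**Figure D3:**
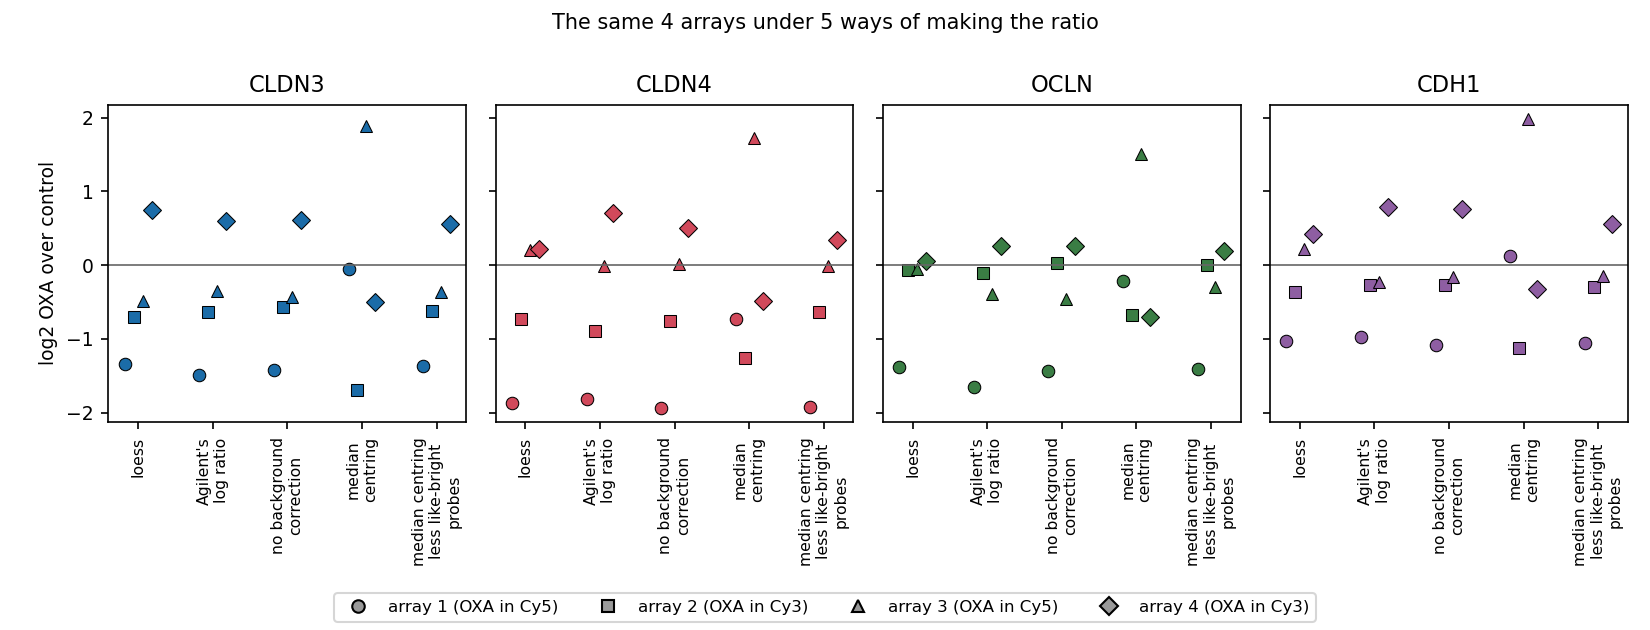
Log2 ratio of OXA over control (y axis) on each of the 4 arrays (symbols) for the brightest probe of CLDN3, CLDN4, OCLN and CDH1, under 5 ways of making the ratio (x axis). Array 1 is the lowest array for each gene in 4 of the 5 ways. Loess, with or without background correction, and the like-brightness setting remove the brightness trend of the dyes, and Agilent's ratio balances the dyes itself. These 4 are thus not independent checks. Median centring leaves the brightness trend of the dyes in. There array 3 rises to 1.51 to 1.98 and array 1 is no longer the lowest.

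The labelling protocol, worded alike for every array, puts OXA in Cy5 throughout, which differs from the dye labels of the single samples. Under that reading the sign of arrays 2 and 4 turns. The means would then be -0.47 for CLDN3, -0.29 for CLDN4, -0.36 for OCLN and -0.22 for CDH1. These values equal the dye coefficients of limma's fit under the sample labels. Arrays 1 and 3 enter both readings unchanged, so a mean below 0 in both is no separate check. The authors' own log2 ratios rose with Cy5 over Cy3 on arrays 1 and 3 and fell with it on arrays 2 and 4. That is the direction of the sample labels.

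Other junction genes were taken from lists of tight, adherens, desmosome and gap junction genes. Without the 4 genes above, 32 of 90 listed genes had a probe and 23 passed the filter. Of these 23, 16 were below 0 and 7 above, with a median of -0.04, against a median of 0.02 over all kept probes, of which 57.0% were above 0. Of the 23, 0 passed limma's test at an adjusted p of 0.05 or the looser rule. At an unadjusted p under 0.05 there was 1, against 1.86% of all kept probes. It was VCL (vinculin, which ties adherens junctions to actin), at 0.21 (SE 0.07; unadjusted p = 0.0400 and adjusted p = 0.763 in limma), and its 4 probes ran from 0.06 to 0.21.

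The other kept claudins read from -0.19 (CLDN5) to 0.45 (CLDN10) on array 1. Among the 14 other tight junction genes kept, the median on array 1 was -0.015, with 8 below 0. Some of the 14 were dim. CLDN18, CLDN22 and F11R were well above background in 5 of 8 readings, and CLDN6, CLDN9, CLDN15 and CLDN19 in 7. The array 1 ratios of these dim genes ran from -0.10 to 0.17, so the median rests partly on them. PARD6B, a cell polarity protein, read -1.26, -0.45, -0.14 and 0.02 on arrays 1 to 4. MARVELD3, a membrane protein related to OCLN, read -0.89, -0.49, 0.05 and 0.10. These had the lowest array 1 values of the 14. CLDN7 read 0.07, -0.22, 0.19 and 0.31, and CLDN8 read 0.06, 0.36, 0.06 and 0.02. CLDN2, CLDN11, CLDN14, CLDN16, CLDN17, CLDN20 and CLDN23 were well above background in 0 to 3 of 8 readings and were not tested.

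In the adherens list NECTIN2, an immunoglobulin-like adhesion receptor, read -0.69 on array 1 and from -0.14 to 0.03 on arrays 2 to 4. CDH5, the cadherin of endothelium, read 0.03, -0.14, -0.36 and -0.54 on arrays 1 to 4, an order opposite to that of CDH1. ACTN1, an actin cross-linker, read -0.17, -0.49, -0.33 and 0.18. Without CDH1, 5 of the 6 kept adherens genes were below 0 by their brightest probe, and the median of the 6 was -0.17. Other probes did not all agree in sign. Fitted ratios ran from -0.20 to 0.03 over 2 ACTN1 probes and from -0.14 to 0.01 over 4 probes of CTNNB1 (beta-catenin). The gap junction connexins GJA1, GJC1 and GJA4 had fitted ratios of -0.13, 0.09 and -0.02. In the desmosome list DSG1 alone had a probe, well above background in 3 of 8 readings and not tested.

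Of 3 measured regulators of epithelial state, KLF4, a zinc finger transcription factor of epithelia, was the lowest. Its brightest probe read -1.58, -0.51, -0.02 and -0.33 on arrays 1 to 4, and its 6 kept probes had fitted ratios from -0.73 to -0.39. The related KLF5 and the growth factor TGFB1 had fitted ratios of 0.01 (SE 0.08) and 0.07 (SE 0.07) by their brightest probes. Over 2 kept probes each, fitted ratios ran from -0.23 to 0.01 for KLF5 and from -0.06 to 0.07 for TGFB1. In limma 0 of the 3 passed (adjusted p = 0.763 to 0.980, and 0 at an unadjusted p under 0.05).

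Markers of cell types moved on the same arrays. Among the other epithelium markers, EPCAM (an epithelial adhesion molecule) read -0.64, 0.10, -0.22 and 0.64 on arrays 1 to 4. KRT8 (a keratin of simple epithelia) read -0.19, -0.33, -0.20 and 0.92. SPP1 (osteopontin, an adhesive protein of uterine epithelium) read -0.27, 0.54, -0.75 and 1.13, and SPINT1 (a protease inhibitor) read -0.08, -0.35, -0.02 and 0.05. All 4 were below 0 on array 1 and above 0 on array 4, and on array 1 none was as low as the bright probes of CLDN3, CLDN4, OCLN or CDH1. In the OXA RNA of array 1 and its control RNA, EPCAM stood at 14.99 and 15.64, and KRT8 at 14.04 and 14.23. Probes of these genes did not all agree in sign, with fitted ratios from -0.10 to 0.11 over 16 EPCAM probes and from -0.12 to 0.05 over 3 KRT8 probes.

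Stromal fibroblast markers stood high with OXA on array 1, where the 4 genes were low. POSTN (periostin, a matrix protein) read 2.65 on array 1 and from -0.17 to 0.12 on the others. DCN (decorin) read 1.46, 0.02, -0.52 and 0.74 on arrays 1 to 4, COL1A2 (a collagen chain) 1.44, -0.52, 0.08 and 0.26, and LUM (lumican) 1.18, 0.08, 0.32 and -0.04. All 4 of 4 kept stromal markers were above 0 on array 1, with a median of 1.45, and THY1 was well above background in 3 of 8 readings and not tested. On array 4 the stromal median was 0.15. Fitted ratios ran from -0.13 to 0.49 over the 9 LUM probes and from 0.64 to 0.95 over the 6 POSTN probes. Their part in the ratios of the junction genes was not tested.

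**Figure D4:**
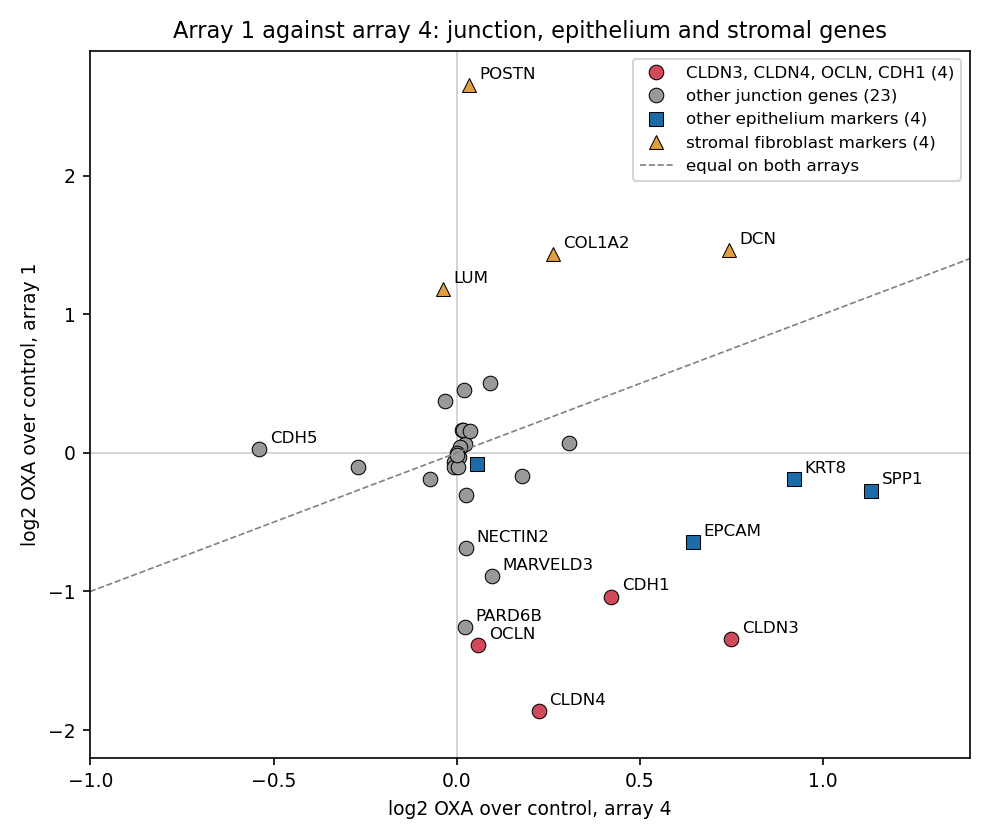
Log2 ratio of OXA over control on array 1 (y axis) against array 4 (x axis) for CLDN3, CLDN4, OCLN and CDH1 and for other junction, epithelium and stromal genes that passed the filter, with a dashed line where both arrays are equal. The 4 genes lie at the lower right, between -1.86 and -1.04 on array 1, while the 4 stromal markers lie between 1.18 and 2.65 on array 1.

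Trophoblast of the conceptus is another epithelium that early pregnant endometrium can carry. Of its listed markers CDX2 and CYP19A3 were well above background in 0 of 8 readings, IFNG in 4, HAND1 and GATA3 in 7 and IL1B2 in 8. IL1B2 (a conceptus form of interleukin-1 beta) read -0.36, -0.36, 0.01 and -0.04 on arrays 1 to 4, and GATA3 (a transcription factor) read -0.17, -0.23, 0.12 and -0.13. TFAP2C, another transcription factor, was above background in all 8 and read 1.21, -0.03, 0.35 and 0.28 on arrays 1 to 4. HAND1 read 0.50, -0.19, 0.01 and 0.03. The 5 kept markers had a median of 0.24 on array 1 and -0.01 on array 4. Both medians are the values of IFNG, well above background in only 4 of 8 readings. The part of these markers in the results was not tested.

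Genes with the most similar ratios were sought among the 2406 other named genes that passed the filter, by the root mean square difference in log2 ratio over the 4 arrays. For OCLN they were ARPC4 (an actin branching subunit) at 0.05, DDIT3 (a stress transcription factor) at 0.09 and ACAN (aggrecan) at 0.11. For CDH1 they were LETM1 (a mitochondrial membrane protein) at 0.12, RANBP1 (a Ran-binding protein) at 0.12 and NANS (a sialic acid synthase) at 0.14. For CLDN4 they were TES (testin, of focal adhesions) at 0.19, NPW (the neuropeptide W precursor) at 0.23 and SELENOS (a selenoprotein of the endoplasmic reticulum) at 0.24. For CLDN3 they included PLPP2 (a phospholipid phosphatase) at 0.31 and OXT (the oxytocin precursor) at 0.33. CLDN3 and CLDN4 differed from each other by 0.51, more than either did from those genes, and none of the genes named in this comparison was another junction gene of the lists.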

How the data were processed

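The deposited scanner output gives median intensity and local background for every spot and dye. Per the file headers it came from Agilent Feature Extraction 10.7.3.1, which also wrote a background-subtracted, dye-normalized log10 ratio of Cy5 over Cy3. A value table deposited by the authors gives log2 ratios. Its slopes against the scanner ratios were 1.06, -1.00, 1.04 and -1.03 on arrays 1 to 4, a direction of OXA over control. Its r with the scanner ratios was 0.89, -0.97, 0.69 and -0.80 over 43420 shared probes. Its column medians were -0.17, 0.06, -0.06 and 0.09, and its centring is unknown.

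Background was corrected by normexp (offset 50) and ratios by loess. Control and outlier spots were left out, and probes well above background in at least 4 of 8 readings were kept. Ratios were fitted in limma 3.58.1 (R 4.3.3) with OXA and dye coefficients, 3.88 total degrees of freedom and Benjamini-Hochberg adjustment over all kept probes. The p-values measure the spread between arrays, whatever its source. Levels used Aquantile scaling. A gene's brightest kept probe stands for it, with symbols from the Sscrofa11.1 gene table (6700 of 7125 RefSeq-named probes matched). The headers name no genome build, so no coordinates are given, and no probe sequences were used here.

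Genes named were all probes of the listed junction genes, up to 4 others per junction or regulator list by size, all measured epithelium and stromal markers, and the 3 nearest genes of each member spanning at least 1 log2 unit. Members and lists were chosen with earlier results of these data known. Alternatives changed the background correction, dye balance, filter, dye direction, fit and arrays used, as given in the closing section. A gene that this rule names is not reported here. Other genes were named after their values were seen. The script was tested on simulated data.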

Additional observations from a re-analysis of the deposited data

Results flagged for a closer look

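Among 66 probes of the junction genes and marker lists, 6 had 1 array far from the other 3 for the size of their range. Chance gives such a gap in about 5% of groups of 4 values with equal spread. The ratios of all kept probes had SDs of 0.46, 0.32, 0.18 and 0.17 on arrays 1 to 4, and the probes share arrays. The 6 of 66 are thus a description and are not set against that 5%. The genes were chosen for low values on array 1, so a gap there restates that choice for OCLN. For OCLN, 2 of its 3 probes stood apart on array 1, at -1.38 with the rest between -0.07 and 0.06, and at -1.41 with the rest between -0.06 and 0.05. The stromal marker POSTN stood apart on array 1 in the other direction, at 2.65, with the rest between -0.17 and 0.12. KRT8 stood apart on array 4, at 0.92, with the rest between -0.33 and -0.19. On array 2 CLDN8 stood apart at 0.36, with the rest between 0.02 and 0.06, and CLDN18 at -0.026, in a range too small to read.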

How the results depend on the processing

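Over the alternatives CLDN3 ran from -0.81 to -0.08, CLDN4 from -1.06 to -0.02 and OCLN from -0.70 to -0.02, and CDH1 from -0.50 to 0.16, the last with median centring. The filters, the dye coefficient and the moderation cannot move these ratios, and the authors' table equals Agilent's log ratio for these genes. The moves were within the SD over arrays, which is itself wide. Array 1 minus array 4 turned with median centring, to 0.45 for CLDN3, 0.48 for OCLN and 0.45 for CDH1, and shrank to -0.24 for CLDN4, since that centring leaves the brightness trend of the dyes in. Taking every Cy5 channel as OXA, it was -0.59 for CLDN3 and -0.62 for CDH1.

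Under the looser rule 349 probes passed (168 higher and 181 lower). There were 1406 with no background correction, 4297 with median centring (4293 higher and 4 lower), 1829 with Agilent's log ratio (1260 and 569), 1824 with the authors' table (1252 and 572), 679 with OXA as Cy5 throughout, and 285 to 3115 when 1 array was left out, highest without array 3 and 2059 without array 4. Adjusted calls ran from 0 to 6 when 1 array was left out, the 6 without array 4, and 0 were probes of the 4 genes. Of their 7 probes, 3 passed the looser rule without array 3 and 1 without array 4, and nothing is read from this.

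List medians moved as follows. Tight junction, -0.039, was -0.0058 without array 2, -0.018 without array 1, -0.14 with no background correction and -0.19 among probes above background in all 8 readings. Adherens junction, -0.19, was 0.16 with median centring, 0.031 with OXA as Cy5 throughout, and -0.22 to -0.036 with 1 array left out, highest without array 2. Gap junction, -0.018, was -0.0030 without array 2, -0.078 with no background correction, -0.057 with Agilent's log ratio and with the authors' table, 0.010 with OXA as Cy5 throughout and 0.090 in all 8 readings. The regulators, 0.0056, were -0.087 without array 1, -0.12 both by Agilent's log ratio and without correcting background, and 0.32 with median centring, where all probes had a median of 0.14. Epithelium markers, -0.10, were 0.043 without array 1, and stromal markers, 0.41, were 0.0016. Conceptus markers, 0.046, were -0.032 without array 1 and -0.26 with Agilent's log ratio and with the authors' table, and myeloid markers, -0.14, were 0.26 with OXA as Cy5 throughout and 0.025 without array 4. Smooth muscle and lymphocyte markers, -0.15 and -0.029, were 0.0052 and 0.0029 without array 2, and endothelium markers, -0.14, were 0.056 without array 3. The causes were not tested.

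Each array holds both RNAs, so its ratio already pairs OXA with control, and there is 1 group of arrays. The fit is thus paired by array, though the labels do not say whether it is also paired by gilt. Arrays 2 to 4 alone are both the fit within their slide and the fit without array 1. Dim probes are limited most by Cy3 on array 1, where 31.8% of probes were well above background.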

Other observations

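Markers of other cell types varied between arrays as well. Smooth muscle genes had medians of 0.10, -0.84, 0.37 and -0.16 on arrays 1 to 4, with DES (desmin) at 1.35 on array 1 and -1.97 on array 2. Endothelium genes, CLDN5 and CDH5 among them, had medians of 0.65, -0.51, -0.06 and -0.41. Macrophage and myeloid genes had 0.36, -0.27, 0.15 and -0.40, and T and NK lymphocyte genes 0.09, -0.28, 0.18 and -0.13. In these 4 lists 0 genes passed limma's adjusted test, the looser rule or an unadjusted p under 0.05, which 1.86% of all kept probes passed. Erythrocyte genes had no named probe.

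KLF4 stood at 12.79, 11.93, 12.14 and 13.27 in the OXA RNAs of arrays 1 to 4, against 14.37, 12.45, 12.16 and 13.60 in the control RNAs. PARD6B stood at 11.08, 10.42, 10.53 and 11.51 in the OXA RNAs, against 12.34, 10.87, 10.67 and 11.49 in the control RNAs. In both genes array 1 had the highest of the 4 control levels. POSTN ran the other way, at 12.78, 10.55, 11.15 and 11.74 in the OXA RNAs, against 10.13, 10.72, 11.03 and 11.71 in the control RNAs, with array 1 having the highest OXA level and the lowest control level. These genes were chosen after their values were seen.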
